A study of Homo sapiens with 12 samples.

Results

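The oxidative phosphorylation genes were the 102 rows of the expression table, of 35337, whose symbols name subunits of the respiratory chain and of ATP synthase. Rows were taken by symbol: 13 genes encoded by the mitochondrial genome (MT-ND, MT-CO, MT-ATP and MT-CYB) and 89 nuclear genes (the NDUF families A, B, C, S and V, SDHA to SDHD, UQCR, CYC1, COX4 to COX8 and ATP5), with 159 pseudogenes left out. The symbol rule is not a perfect list of subunits. NDUFA4 carries a complex I name but its protein was later placed in complex IV, COX7A2L encodes a factor that joins complexes III and IV, ATP5S (DMAC2L in current annotation) encodes a coupling factor of ATP synthase and not a subunit, and ATP5MF-PTCD1 is a readthrough transcript.

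The cells were EndoC-βH3, a beta-cell line of human origin whose genotype the labels give as WT. The line carries hTERT and the SV40 large T antigen as transgenes, and a CreER recombinase that removes both when it is activated by 4-hydroxytamoxifen (4-OHT). Senescent cells (6 samples) had received 4-OHT for 3 weeks, and non-senescent cells (6 samples) were labelled as control. The parts of 4-OHT itself, of the loss of the transgenes and of the arrest that follows cannot be told apart, since all of them differ between the groups. Each group held 2 samples of batch A and 4 of batch B, the letter being part of the sample names, and nothing states that replicates were separate cultures, so p-values measure the spread between these samples.

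Oxidative phosphorylation is the main source of ATP in most cells. Complexes I and II pass electrons from NADH and succinate to ubiquinone, complex III passes them on to cytochrome c, complex IV hands them to oxygen, and complex V (ATP synthase) uses the proton gradient that complexes I, III and IV build. The mitochondrial genome encodes core subunits of complexes I, III, IV and V. Its genes are transcribed as long precursors from both strands and cut into messenger RNAs. All other subunits, and complex II as a whole, are encoded in the nucleus. In beta cells this pathway links glucose to insulin release, because the ATP it makes from glucose closes potassium channels of the plasma membrane.

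Values are normalised read counts from CEL-seq2, in which only the 3′ ends of polyadenylated transcripts are sequenced, with a log2 fold change of senescent over non-senescent samples that takes batch into account. Here, a gene "rose" or "fell" where its adjusted p was under 0.1 (limma, over all 13847 genes tested), and was "called" where its fold change was over 1.5 as well. Because only the 3′ end was counted, and how well each end is captured is not known, the level of a gene is not read against that of another gene, and shares and ratios of reads are compared only between samples. In these bulk samples a lower value can come from fewer cells that express a gene or from less RNA per cell, and these cannot be told apart.

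Libraries held 4672924 to 17106776 reads, with 8873569 or more in batch A and 7063264 or fewer in batch B. The first principal component split the batches (57.6% of the variance), so that values are given by batch. Of 6 beta-cell markers, INS (log2 fold change of 2.23), IAPP, CHGA and PDX1 rose and NKX6-1 fell; the summed level of the 6 was 511683 to 640805 in non-senescent and 656480 to 848897 in senescent samples, most of it CHGA, which other endocrine cells also express. Of 10 markers of other pancreatic and stromal cells, 7 passed the filter on low values, the acinar gene CPA1 rose and GCG, SST, KRT19 and PTPRC fell. Their summed level, nearly all of it SST, was 164746 to 290678 in non-senescent and 115695 to 146031 in senescent samples, and PPY and PRSS1 had at most 3 reads in any library. The part of these shifts in the results was not tested.

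Transcripts of the 13 mitochondrial genes took a larger share of all reads in senescent than in non-senescent samples, and transcripts of the 89 nuclear genes a smaller one. In batch A the mitochondrial genes held 20.2% and 19.9% of reads in non-senescent and 24.8% and 24.7% in senescent samples. In batch B they held 16.4%, 15.6%, 15.7% and 16.1% in non-senescent and 17.8%, 17.2%, 17.4% and 17.3% in senescent samples. The groups did not overlap in either batch, and the shift was larger in batch A. For the library with the fewest reads the 95% Wilson interval of the share, which covers counting error only, was 15.65% to 15.71%. Over both batches together the share was 2.57 percentage points higher in senescent samples. This pooled value lies between the larger shift of batch A and the smaller one of batch B, and is the shift of neither. With INS, whose reads rose, taken out of the total, the pooled difference was 2.81 points.

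The nuclear genes held 1.67% to 1.87% of reads in non-senescent and 1.29% to 1.56% in senescent samples, and again the groups did not overlap. The ratio of mitochondrial to nuclear reads therefore moved further than either share. It was 11.1 and 10.7 in non-senescent against 17.4 and 17.1 in senescent samples of batch A. In batch B it ranged from 8.6 to 9.37 in non-senescent and from 11.4 to 13.5 in senescent samples. The plot of read shares shows both shifts library by library.

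**Figure D1:**
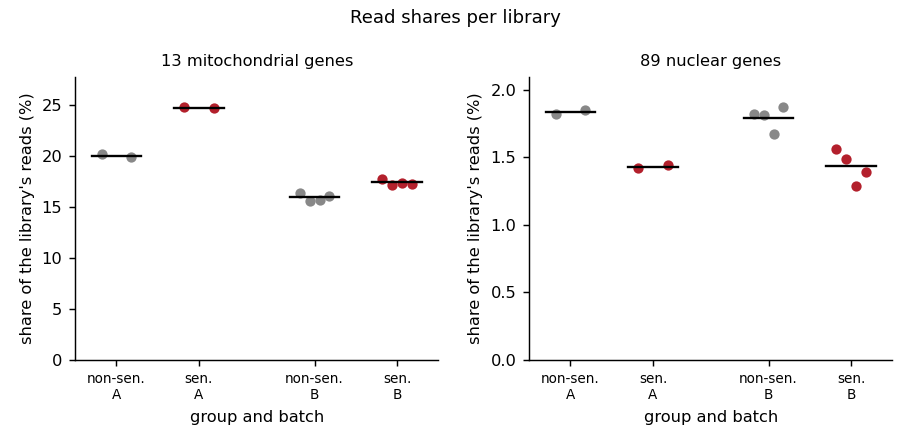
Share of each library's reads (%) held by the 13 mitochondrial genes (left) and the 89 nuclear genes (right), by group and batch; grey points are non-senescent and red points senescent libraries, and lines are means. The mitochondrial share was 19.9% to 20.2% in non-senescent and 24.7% to 24.8% in senescent libraries of batch A, and the nuclear share was at most 1.56% in every senescent library and at least 1.67% in every non-senescent one.

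All 13 mitochondrial genes passed the filter on low values, and 8 of them rose, which is 61.5% against 23.2% of all genes tested. None fell. MT-ND5 and MT-ND2 were called higher, 15.4% of the 13 against 11.6% of all genes. Their groups did not overlap in either batch for 5 genes (MT-ND5, MT-ND2, MT-ND4, MT-CYB and MT-CO1), 38.5% against 11.9% of all genes. The median log2 fold change of the 13 was 0.31 (batch A 0.45, batch B 0.23), beside 0.01 over all genes tested.

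MT-ND5 (chrM:12337-14148, GRCh38), a membrane subunit of complex I that takes part in proton pumping, had the largest change. Its normalised read count was 19720 and 19169 in non-senescent and 31877 and 33480 in senescent samples of batch A. In batch B it was 46448, 38050, 33968 and 36748 in non-senescent and 72250, 53910, 60118 and 70783 in senescent samples. Every senescent value lay above every non-senescent value of its batch. The log2 fold change was 0.73 ± 0.09 (SE, n = 6 per group, adjusted p = 2.9e-06, limma), and was nearly the same in both batches, 0.75 and 0.73.

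MT-ND2 (chrM:4470-5511), a further membrane subunit of complex I, rose by 0.63 ± 0.09 (adjusted p = 3.25e-05, limma). In batch A it went from 154704 and 132680 to 298011 and 252595 normalised reads. In batch B non-senescent samples lay between 173667 and 194835 and senescent samples between 257898 and 264794, a tight pair of groups without overlap. MT-CO1 (chrM:5904-7445), the catalytic subunit of complex IV that holds the site where oxygen is reduced, rose by 0.53 ± 0.07 (adjusted p = 1.17e-05, limma). Its values were 49257 and 47787 against 79851 and 82582 in batch A, and 38099 to 41190 against 51343 to 58524 in batch B.

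Smaller rises were measured for the other complex I genes MT-ND3 (log2 fold change of 0.37), MT-ND4 (0.31), MT-ND4L (0.31) and MT-ND1 (0.26), and for MT-CYB (0.27), the cytochrome b of complex III. MT-ND4L did not pass the test in 3 of the 12 fits without a single library (adjusted p up to 0.108, limma) and in batch B alone (0.23, adjusted p = 0.206). The same held under scaling to the same total, without the batch term and without the intensity trend. MT-ND6, the only one of the 13 on the other strand, had values of 1332 and 2984 against 2914 and 1570 in batch A, and of 387 to 812 against 540 to 779 in batch B, with a log2 fold change of 0.33 ± 0.21 (adjusted p = 0.224, limma). It had the fewest reads of the 13 and its replicates spread widely, and since strand use in counting is not stated, reads of MT-ND6 and of RNA from the opposite strand cannot be told apart. Ordered along the mitochondrial genome, the genes with the smallest values lay side by side: MT-CO2 (0.03 ± 0.07), MT-ATP8 (0.10 ± 0.14), MT-ATP6 (0.03 ± 0.07) and MT-CO3 (0.14 ± 0.08). None of these 4 passed the test, and in batch B alone all 4 had negative values, from -0.12 to -0.02. MT-CO2 and MT-CO3 encode the remaining mitochondrial core subunits of complex IV, and MT-ATP6 and MT-ATP8 encode membrane subunits of ATP synthase.

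**Figure D2:**
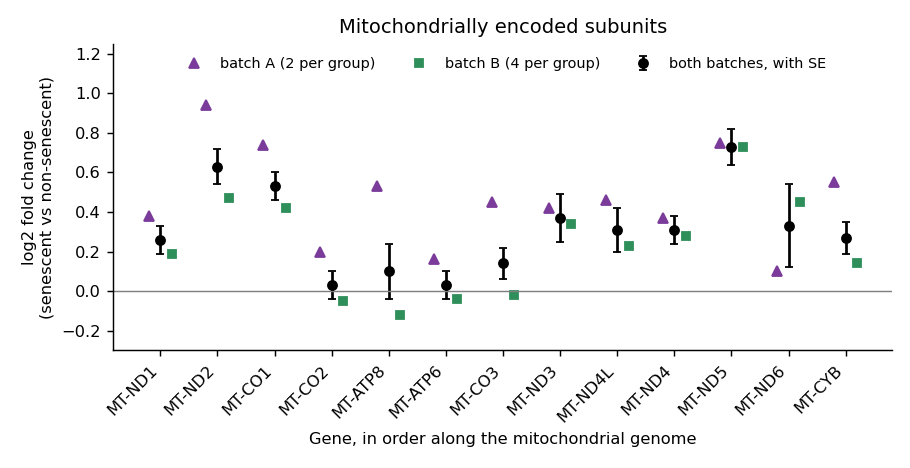
Log2 fold change of senescent over non-senescent samples for the 13 mitochondrial genes, in their order along the mitochondrial genome; black circles are the value over both batches with its standard error, purple triangles batch A (2 samples per group) and green squares batch B (4 per group). MT-ND5 has the highest value (0.73) and MT-CO2 and MT-ATP6 the lowest (0.03); under scaling to the same total, MT-CO2, MT-ATP6 and MT-ATP8 have negative values.

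The direction of the genes with small values depended on the scaling. With all libraries scaled to the same total, the median over all genes moved from 0.01 to -0.09 and MT-CO2, MT-ATP6 and MT-ATP8 turned negative (-0.07, -0.08 and -0.01). With the same total of non-mitochondrial reads the median of all genes was -0.05, and MT-CO2 and MT-ATP6 turned negative. The other 10 genes kept a positive sign under the 4 scalings tried in addition to the deposited one, and 7 or 8 of the 13 rose under each. Of all 13847 genes tested, 2416 to 3143 rose under these scalings.

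MT-ATP8 and MT-ATP6 share bases, since both reading frames lie on the same messenger RNA, so a read from that stretch cannot be given to either gene. The shared 46 bases (chrM:8527-8572, GRCh38, plus strand) are shown. They lie at the start of MT-ATP6 (chrM:8527-9207), away from its 3′ end, and how many reads came from them was not measured.
MT-ATP8/MT-ATP6 overlap: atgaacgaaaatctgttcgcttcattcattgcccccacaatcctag
MT-ND4L and MT-ND4 also overlap, by 7 bases (chrM:10760-10766), and reads over these were not measured either. The rows of the shorter reading frame of each pair differed severalfold between batches. Non-senescent samples had 2639 and 2964 normalised reads for MT-ATP8 in batch A against 8887 to 13906 in batch B, and for MT-ND4L 3139 and 2940 in batch A against 7892 to 12334 in batch B. Their partners were higher in batch A: non-senescent samples had at least 327254 for MT-ATP6 and 218122 for MT-ND4 in batch A, and at most 226489 and 183615 in batch B. The difference between groups was therefore read only within batches.

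MT-ND1 shares reads with MTND1P23, a copy of its 3′ part in the nuclear genome (chr1:629062-629433, GRCh38, plus strand). Of the copy's 372 bases, 371 could be placed on MT-ND1 without gaps, with 17 mismatches, and the last 158 bases of MT-ND1 were identical in both. The last 120 are shown, since a 3′-end read falls there.
MT-ND1 (chrM:4143-4262, plus strand): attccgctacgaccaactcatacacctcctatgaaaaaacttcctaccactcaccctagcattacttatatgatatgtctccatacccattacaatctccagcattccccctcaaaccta
MTND1P23 (chr1:629313-629432, plus strand): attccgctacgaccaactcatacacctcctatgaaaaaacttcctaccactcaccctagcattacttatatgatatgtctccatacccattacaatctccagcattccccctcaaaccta
How reads were divided between the gene and the copy differed between batches. In batch A non-senescent samples MT-ND1 had 118134 and 109559 normalised reads and MTND1P23 had 163944 and 172186. In batch B these were 55685 to 69427 and 228497 to 289904. The sum of both differed less between batches than either row, and was 282078 and 281745 in batch A against 287965 to 359331 in batch B. In senescent samples the sum was 358525 and 369929 in batch A and 325343 to 381628 in batch B. The sum rose by 0.25 ± 0.08 on the log2 scale (adjusted p = 0.0222, limma), close to the 0.26 ± 0.07 of MT-ND1 (adjusted p = 0.00864) and the 0.25 ± 0.08 of the copy (adjusted p = 0.0228).

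Over all 392 nuclear copies of mitochondrial genes in the table, reads came to 17.2% of those of the 13 genes, and MTND1P23 held 3058905 and MTATP6P1 286966 of their 3365538 reads. MTATP6P1 (chr1:633696-634376) matched MT-ATP6 along 681 bases with 10 mismatches, and had 15312 to 27676 normalised reads per library against 201394 to 392377 for MT-ATP6. With all copies added in, the mitochondrial share differed by 2.88 percentage points between the groups, pooled over both batches.

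The nuclear genes moved the other way. Of 89, 84 passed the filter on low values; 44 of these fell and 7 rose. This is 52.4% lower, against 22.3% of all genes tested, and 8.33% higher, against 23.2%. The shifts were small: 5 genes (5.95%) were called lower, against 11.8% of all genes, and 0 were called higher by limma, with 1 each by edgeR and DESeq2 (COX7A1, described below). The median log2 fold change was -0.26 over both batches (batch A -0.20, batch B -0.26). The groups did not overlap in either batch for 26 genes that were lower in senescent samples (31%, against 11.9% of all genes) and for 4 that were higher (4.76%, against 11.9%). With libraries scaled to the same total, 59 nuclear genes fell and 5 rose. Of all 13847 genes tested, 4002 fell and 2416 rose under that scaling.

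**Figure D3:**
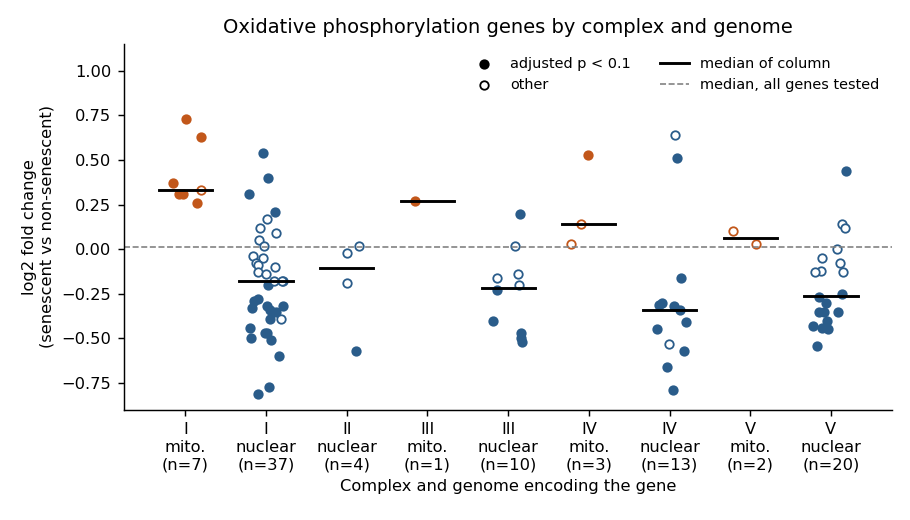
Log2 fold change of each tested gene, by complex and by the genome that encodes it (orange mitochondrial, blue nuclear); filled points passed an adjusted p of 0.1, open points did not, black lines are column medians and the dashed line is the median of all genes tested (0.01). Every nuclear column has a median below 0, from -0.34 in complex IV to -0.10 in complex II, and every mitochondrial column a median above 0, although 3 of the 13 mitochondrial genes turn negative under scaling to the same total.

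Complex I, the NADH dehydrogenase, had 37 nuclear genes, all of them tested, of which 17 fell and 4 rose (median of -0.18). The 7 nuclear core subunits carry the flavin and the iron-sulfur clusters or line the quinone site. Of these, NDUFS3 (log2 fold change of -0.51), NDUFV1 (-0.47), NDUFS8 (-0.47) and NDUFV2 (-0.29) fell. NDUFS7 had -0.39 ± 0.19 (adjusted p = 0.109, limma) and NDUFS1 0.05 ± 0.09. Among the 30 accessory subunits 13 fell and 3 rose.

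NDUFA6 (chr22:42085526-42090884), an accessory subunit of the LYR protein family, fell the most of the 84 nuclear genes tested. Its normalised read counts were 1112 and 1109 in non-senescent and 562 and 615 in senescent samples of batch A. In batch B they were 706, 760, 701 and 722 in non-senescent and 454, 436, 390 and 423 in senescent samples. The groups were far apart in both batches, with a log2 fold change of -0.81 ± 0.07 (adjusted p = 6.61e-08, limma). NDUFB2 (chr7:140690777-140722790), an accessory subunit of the membrane arm, fell by 0.60 ± 0.08 on the log2 scale (adjusted p = 2.32e-05). It went from 895 and 940 to 633 and 695 in batch A and from 535 to 609 down to 298 to 396 in batch B.

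NDUFA5 (chr7:123536997-123557904), an accessory subunit of the arm that reaches into the matrix, rose the most among nuclear genes past the test. In batch A it was 1248 and 1101 in non-senescent and 1489 and 1617 in senescent samples. In batch B it was 1059, 962, 1246 and 1144 in non-senescent and 1763, 1837, 1824 and 1312 in senescent samples, so that no senescent value reached down to the control values. The log2 fold change was 0.54 ± 0.09 (adjusted p = 1.82e-04, limma). NDUFS4, whose loss destabilises complex I in people and mice, rose by 0.40 ± 0.10 (adjusted p = 0.00431), from 140 and 158 to 207 and 229 in batch A and from 151 to 195 up to 201 to 242 in batch B. NDUFA10 rose by 0.21 (adjusted p = 0.0978).

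Complex II, succinate dehydrogenase, also belongs to the citric acid cycle and is the only complex without a mitochondrial gene. Its iron-sulfur subunit SDHB (chr1:17018664-17054032) fell, and its other subunits did not pass the test. SDHB values were 196 and 199 against 144 and 163 in batch A. In batch B they were 217, 255, 197 and 246 against 107, 124, 193 and 159, again without overlap. The log2 fold change was -0.57 ± 0.14 (adjusted p = 0.00305, limma). SDHA, the flavoprotein, had -0.02 ± 0.07, and the membrane anchors SDHC and SDHD had 0.02 ± 0.07 and -0.19 ± 0.10. The 95% intervals of SDHA and SDHC, -0.14 to 0.11 and -0.12 to 0.15, do not hold the -0.57 of SDHB, and the signs of both turned under other settings.

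Complex III, the cytochrome bc1 complex, had 10 nuclear genes, of which 5 fell and 1 rose. Those that fell held both catalytic nuclear subunits, CYC1 (cytochrome c1, log2 fold change of -0.47) and UQCRFS1 (the Rieske iron-sulfur protein, -0.40), the core protein UQCRC1 (-0.52) and the small subunits UQCRQ (-0.50) and UQCRH (-0.23). UQCRC1 (chr3:48599002-48610976) went from 231 and 227 to 191 and 210 in batch A and from 238 to 272 down to 142 to 183 in batch B (adjusted p = 9.51e-04, limma). UQCRC2, its partner core protein, had 0.02 ± 0.06. UQCRB, a small subunit near the quinone site, rose by 0.20 ± 0.09 (adjusted p = 0.071), and this was lost in 6 of the 12 fits without a single library (adjusted p up to 0.171).

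Complex IV, cytochrome c oxidase, had the largest share of nuclear genes that fell: 10 of 13 tested (76.9%), with 1 that rose and a median of -0.34. COX5A (chr15:74919791-74938083), a nuclear subunit on the matrix side, was 1149 and 1148 in non-senescent and 807 and 845 in senescent samples of batch A. In batch B it was 962, 1041, 937 and 1162 in non-senescent and 516, 516, 501 and 584 in senescent samples. The highest senescent value of each batch lay well under the lowest control value, with a log2 fold change of -0.79 ± 0.09 (adjusted p = 2.13e-06, limma). COX7B (chrX:77899440-77907376), a small membrane subunit, went from 3272 and 3606 to 2152 and 2357 in batch A and from 5639 to 6845 down to 3596 to 4441 in batch B, with a log2 fold change of -0.66 ± 0.07 (adjusted p = 9.89e-07). NDUFA4 (chr7:10931943-10940153), counted with complex I by its symbol, fell by 0.77 ± 0.14 on the log2 scale (adjusted p = 3.89e-04). Its values were 450 and 407 against 214 and 252 in batch A, and 235 to 340 against 128 to 235 in batch B, where the closest values of the groups were nearly equal.

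Several complex IV subunits exist as a widely expressed form and a form of heart, muscle, testis or lung. The widely expressed forms COX6A1 (log2 fold change of -0.57), COX8A (-0.45), COX6B1 (-0.41) and COX7A2 (-0.32) fell. COX4I1 was at the limit with -0.16 ± 0.07 (adjusted p = 0.086, limma), did not pass the test in 7 of the 12 fits without a single library, and had 0.06 in batch A. Of the other forms, COX4I2, COX6A2, COX7B2 and COX8C had at most 3 reads in all 12 libraries together and were not tested; 3 reads per library, a normalised read count of 1.35 to 4.52, would not have been told from none. COX7A1, the muscle form, ranged from 4.38 to 11.1 in non-senescent and from 2.49 to 26.7 in senescent samples (0.64 ± 0.42, adjusted p = 0.247), and the groups overlapped in batch B. COX6B2, the testis form, ranged from 4.77 to 39.2 and from 2.69 to 18.3. COX7A2L (chr2:42333546-42425088), the factor that joins complexes III and IV, was the only COX gene that rose, from 591 and 673 to 814 and 853 in batch A, and from 696 to 849 up to 1044 to 1222 in batch B (0.51 ± 0.08, adjusted p = 4.37e-05).

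Complex V had 21 nuclear genes, of which 20 were tested, 11 fell and 1 rose (median of -0.26). In the catalytic head and the central stalk that turns inside it, the β subunit ATP5F1B (log2 fold change of -0.35) and the γ subunit ATP5F1C (-0.30) fell. The α subunit ATP5F1A had 0.12 ± 0.07, the δ subunit ATP5F1D 0.00 ± 0.12 and the ε subunit ATP5F1E -0.13 ± 0.08. In the outer stalk that holds the head in place, ATP5PO (-0.45), ATP5PF (-0.44) and ATP5PD (-0.43) fell and ATP5PB had -0.13 ± 0.07. ATP5IF1, which inhibits the enzyme when it runs backwards, had -0.12 ± 0.09. ATP5MGL, like UQCRHL in complex III, is nearly identical to a paralog (ATP5MG and UQCRH), so its count is uncertain; it ranged from 4.23 to 11.1 in batch A and from 114 to 190 in batch B (-0.40 ± 0.18, adjusted p = 0.0903).

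The ring that turns in the membrane is built of subunit c, for which 3 nuclear genes encode the same mature protein behind different targeting peptides, and these 3 genes moved in different directions. ATP5MC1 (chr17:48892765-48895871) went from 816 and 847 to 552 and 627 in batch A, and from 1354, 1371, 1087 and 1370 to 882, 902, 752 and 977 in batch B. ATP5MC3 (chr2:175176258-175181710) went from 1590 and 1713 to 1334 and 1280 in batch A and from 1249 to 1605 to 1070 to 1331 in batch B. ATP5MC2 (chr12:53632726-53677408) went from 1980 and 1811 up to 3030 and 3241 in batch A, and from 2977, 2925, 2493 and 2873 up to 3211, 3404, 3531 and 3696 in batch B. ATP5MC1 and ATP5MC2 did not overlap between groups in either batch, whereas ATP5MC3 overlapped in batch B. The log2 fold changes were -0.54 ± 0.08 for ATP5MC1 (adjusted p = 5.2e-05), -0.27 ± 0.07 for ATP5MC3 (adjusted p = 0.00735) and 0.44 ± 0.08 for ATP5MC2 (adjusted p = 2.96e-04, limma). ATP5MC2 held 41.4% to 51.7% of the summed reads of the 3 genes in non-senescent samples and 59.2% to 66% in senescent samples. The sum itself was 4385 and 4371 against 4916 and 5149 in batch A, and overlapped between the groups in batch B (4829 to 5848 against 5353 to 5882).

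**Figure D4:**
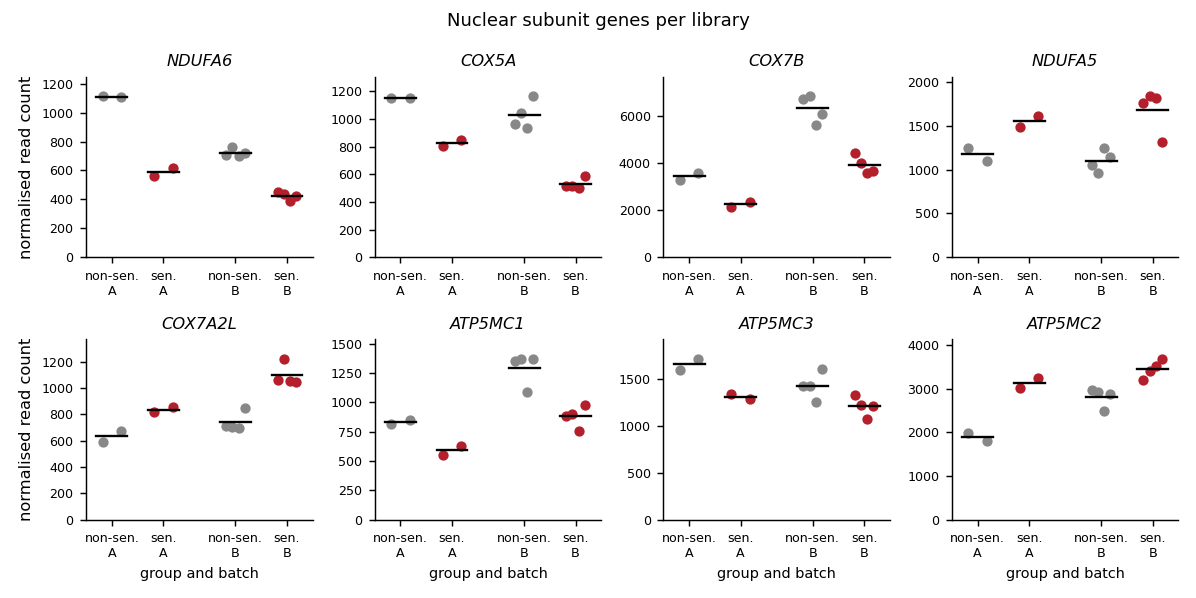
Normalised read count of 8 nuclear genes in each library, by group and batch; grey points are non-senescent and red points senescent libraries, lines are means, and each axis starts at 0. NDUFA6, COX5A, COX7B and ATP5MC1 are lower and NDUFA5, COX7A2L and ATP5MC2 higher in senescent libraries of both batches without overlap; ATP5MC3 overlaps in batch B.

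Promoters of nuclear subunit genes are known for sites of the factors NRF1, ETS (as in GABPA) and YY1. The RefSeq promoter table (GRCh38.p14, 250 bases before to 50 after the start) held 69 of the 89 nuclear genes. The words GCATGCGC (NRF1), CCGGAAGT (ETS) and ATGGCGGC (YY1) were searched on both strands, and none of the words contains another. At least 1 of them was present in 29 of 69 promoters (42%), against 17.5% of the promoters of all genes tested and 9.37% of all promoters in the table. Among genes that fell, 17 of 37 promoters (45.9%) held a word, and among genes that did neither 11 of 24 (45.8%); of 5 promoters of genes that rose, 1 did. The NRF1 word was in 21.6% of the promoters of genes that fell and in 12.5% of those that did neither, the ETS word in 18.9% and 16.7%, and the YY1 word in 13.5% and 25%. These are matches of letters, not measured sites.

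Promoters of 4 genes are printed with the words in capitals: those of NDUFA6 and SDHB, described above, of COX5B, a complex IV subunit that fell (log2 fold change of -0.34), and of NDUFS4, which rose.
NDUFA6 (chr22:42090723-42091022, minus strand): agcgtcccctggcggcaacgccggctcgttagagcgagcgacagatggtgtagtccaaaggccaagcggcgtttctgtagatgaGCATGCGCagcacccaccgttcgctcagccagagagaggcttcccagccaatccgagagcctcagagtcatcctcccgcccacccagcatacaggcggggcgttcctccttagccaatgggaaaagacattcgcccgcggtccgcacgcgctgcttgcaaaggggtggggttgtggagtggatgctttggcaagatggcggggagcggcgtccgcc
SDHB (chr1:17053983-17054282, minus strand): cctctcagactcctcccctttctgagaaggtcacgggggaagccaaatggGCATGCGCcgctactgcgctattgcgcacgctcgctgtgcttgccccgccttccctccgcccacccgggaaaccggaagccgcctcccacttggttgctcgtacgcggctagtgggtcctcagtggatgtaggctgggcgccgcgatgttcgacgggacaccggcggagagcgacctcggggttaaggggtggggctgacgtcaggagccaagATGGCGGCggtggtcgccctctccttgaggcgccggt
COX5B (chr2:97645812-97646111, plus strand): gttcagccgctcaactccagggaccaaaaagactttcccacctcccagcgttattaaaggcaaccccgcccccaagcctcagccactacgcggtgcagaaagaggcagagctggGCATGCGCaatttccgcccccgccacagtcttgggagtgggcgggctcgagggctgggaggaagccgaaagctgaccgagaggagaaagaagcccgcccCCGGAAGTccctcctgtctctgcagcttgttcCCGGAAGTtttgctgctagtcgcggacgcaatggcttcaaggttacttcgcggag
NDUFS4 (chr5:53560389-53560688, plus strand): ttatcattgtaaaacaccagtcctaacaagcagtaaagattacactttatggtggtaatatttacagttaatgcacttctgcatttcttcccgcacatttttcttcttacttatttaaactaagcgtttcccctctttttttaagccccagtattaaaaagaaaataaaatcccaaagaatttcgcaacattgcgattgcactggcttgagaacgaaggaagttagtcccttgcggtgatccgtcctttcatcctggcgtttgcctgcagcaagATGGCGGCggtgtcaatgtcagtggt
Of the genes for these factors, YY1 fell by 0.18 ± 0.07 (adjusted p = 0.0681, limma) and GABPA by 0.46 ± 0.19 (adjusted p = 0.0671) on the log2 scale, and NRF1 had -0.39 ± 0.24 (adjusted p = 0.215).

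Most nuclear subunit genes have short transcripts, and genes with short transcripts fell more often than all genes tested (22.3%). The Spearman correlation of length with log2 fold change was 0.15 over all genes with a known length and 0.12 over the 84 nuclear genes. The median length of the GENCODE v44 canonical transcript was 781 bases for the 84 nuclear genes and 3355 bases for all genes tested. Among all 906 tested genes with transcripts of at most 1000 bases, the subunit genes included, 34% fell and 14.3% rose, with a median log2 fold change of -0.15. Of the 49 nuclear subunit genes in that class 59.2% fell and 4.1% rose, with a median of -0.30. Of the 35 longer ones 42.9% fell and 14.3% rose, with a median of -0.18. The part of transcript length in the shift of the nuclear genes was not tested.

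The difference between senescent and non-senescent samples itself differed between batches for 6 of the 97 genes tested (6.19%, against 4.21% of all genes; interaction test, adjusted p under 0.1). This count was 0 to 10 without single libraries, 0 without each A sample in turn, without the filter or without the intensity trend, and 15 with array weights. For 3 mitochondrial genes the rise was smaller in batch B: MT-CO3 (0.45 in batch A and -0.02 in batch B), MT-CYB (0.55 and 0.14) and MT-ND2 (0.94 and 0.47). ATP5MC2 also rose less in batch B (0.73 and 0.30). NDUFS8 fell in batch B (-0.66) and had -0.09 in batch A, and ATP5S had -0.34 in batch A against 0.37 in batch B. The sign was the same in both batches for 9 of the 13 mitochondrial and 64 of the 84 nuclear genes. Over all genes tested it was the same for 9750 of 13847.

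**Figure D5:**
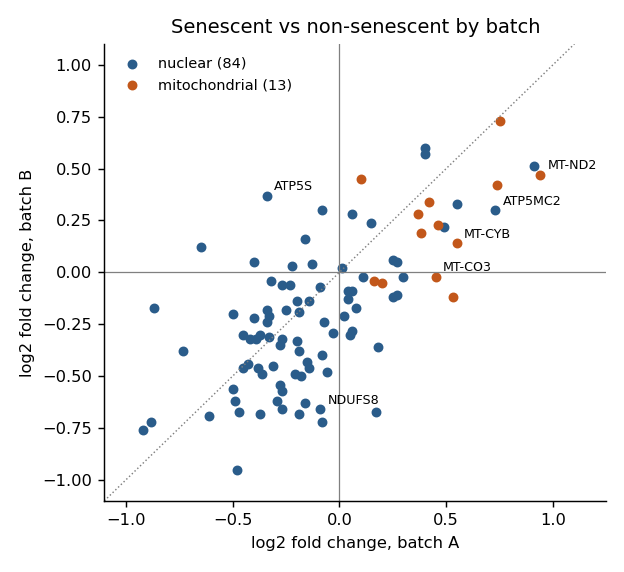
Log2 fold change of senescent over non-senescent samples in batch A (2 samples per group, x axis) and batch B (4 per group, y axis) for the 84 nuclear (blue) and 13 mitochondrial (orange) genes tested; the dotted line marks equal values. The 6 genes named are those that differed between batches with all libraries in the fit (0 to 10 genes without single libraries), with MT-CO3 at 0.45 and -0.02 and ATP5S at -0.34 and 0.37.

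Other genes of the pathway were counted in lists, to be read against the 22.3% of all genes tested that fell and the 23.2% that rose. Of 48 assembly factors, 14 fell (29.2%) and 7 rose (14.6%), with a median of -0.03. COX11, ECSIT and ATPAF2, needed for the copper site of complex IV, for complex I and for the head of ATP synthase, were called lower. Their log2 fold changes were -0.76, -0.76 and -0.71. UQCC3, needed for complex III, was called higher (1.03). The shares of assembly factors called were 6.25% lower, against 11.8% of all genes, and 2.08% higher, against 11.6%. Of 17 tested genes for electron carriers and alternative subunits 6 fell (35.3%), among them CYCS (cytochrome c, -0.27), and 1 rose (5.88%), COQ3 (ubiquinone synthesis, 0.93). Of 21 tested genes for proteins that transcribe and copy mitochondrial DNA 4 fell (19%) and 2 rose (9.52%), with a median of -0.01. For the assembly factors and this list the shares that fell were near that of all genes. Within that list, TFAM, which packs mitochondrial DNA and starts its transcription, fell from a mean of 230 to 154 (-0.56 ± 0.13), the nuclease MGME1 fell (-1.29 ± 0.17), and POLG2, a subunit of the mitochondrial DNA polymerase, rose (0.81 ± 0.20). POLRMT, the RNA polymerase of mitochondria, had 0.30 ± 0.18 (adjusted p = 0.199, limma).

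Mitochondrial ribosomal proteins, which build the ribosome that translates the 13 mitochondrial messages, were counted beside the subunits. Of 78 genes 44 fell (56.4%, against 22.3% of all genes) and 3 rose (3.85%, against 23.2%), with a median of -0.30 (batch A -0.10, batch B -0.39). The share called lower, 11 genes or 14.1%, was near the 11.8% of all genes. MRPL37 (-1.18), MRPL11 (-1.03), MRPS24 (-1.02) and MRPS15 (-0.90) had the largest changes, and MRPS24 had 0.04 in batch A. Of 23 genes for pyruvate dehydrogenase and the citric acid cycle 6 fell (26.1%, near the share of all genes) and 3 rose (13%). The pyruvate dehydrogenase kinases PDK4 (1.39 ± 0.26) and PDK2 (0.67 ± 0.26), which turn that enzyme off, were called higher (8.7%, against 11.6% of all genes). In the same list 1 gene was called lower (4.35%, against 11.8%). Of 14 tested nuclear regulators of mitochondrial biogenesis 5 fell (35.7%) and 3 rose (21.4%, near the share of all genes). PPARGC1A (PGC-1α) was called lower from few reads (-1.70 ± 0.59), 110 in all non-senescent and 31 in all senescent libraries. PPRC1 (-0.77) and ESRRG (-0.64) were also called lower, and the deacetylase SIRT3 was called higher (0.77). Of these 14 regulators 21.4% were called lower, against 11.8% of all genes, and 7.14% higher, against 11.6%.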

How the data were processed

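Poly(A) RNA of 12 EndoC-βH3 samples was profiled by CEL-seq2. Groups and batches follow the sample titles, which match the sample columns 1 to 1. According to the methods and the submitters' processing notes, the authors used Cutadapt for trimming, Salmon 0.13.1 with GRCh38 for quantification and DESeq2 for normalisation. Annotation, strand use and treatment of molecular identifiers are not given in the sources used here, so intervals and floors cover counting error only. In the deposited table each value is a signal: reads of a gene over the size factor of its sample; 100% of non-zero values were whole multiples of the smallest in their column (tolerance of 1e-06), so reads were recovered. The deposited log2 fold changes, test statistic (a score) and p-values, raw and adjusted, hold the authors' own comparison and were not used.

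The test was limma 3.58.1 (R 4.3.3, intensity trend) on log2(value + 1) for 13847 genes with a mean of at least 5, with batch and group in the model and Benjamini-Hochberg adjustment over all of them. Fold changes on this scale understate changes of low genes. The limits, an adjusted p of 0.1 and a fold of 1.5, follow the study. On simulated reads for this comparison (13847 genes, 200 of them changed) limma recovered 52% of the 1.5-fold and 86% of the 2-fold changes. The simulated spread between replicates was set and not fitted to these data, in which far more genes passed (3214 rose and 3087 fell). These shares therefore do not tell how many changes of the subunit genes were missed. Replicates differed by more than sampling noise (chi-square per degree of freedom of 4.14 to 7.61).

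The genes and lists were chosen with earlier results of these data known. Named were all mitochondrial genes, SDHA to SDHD, called nuclear genes, the highest and lowest of each complex, the COX isoforms and up to 4 called genes per list; other genes were chosen after their values were seen. Values of some single genes are not reported here. Alternatives varied the pseudocount, filter, scaling, batch term, replicate block, batches, single libraries, trend, weights and tool (edgeR 4.0.16 and DESeq2 1.42.0 on recovered reads). Positions are from GENCODE v44 (3 genes through RefSeq synonyms), promoters from RefSeq.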

Additional observations from a re-analysis of the deposited data

Results flagged for a closer look

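Among 144 groups of 4 or 6 samples, 9 held a sample far from its group, against about 7 groups that chance alone would give. They were MT-ND2 in non-senescent B2 (173667 normalised reads, low among batch B) and senescent A1 (298011, high), MT-ND6 in non-senescent A2 (2984, high), NDUFA5 in senescent B4 (1312, low), ATP5MC1 in non-senescent B3 (1087, low), COX6B2 in non-senescent B1 (39.2, high both among 4 and among 6 samples), and COX7A2L in non-senescent B4 (849, high) and senescent B2 (1222, high). Without non-senescent A2, MT-ND6 had a log2 fold change of 0.51 in place of 0.33.

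The response to senescence differed between batches for 6 genes by the interaction test. The difference (batch B minus batch A, log2) was -0.47 for MT-CO3, -0.41 for MT-CYB, -0.47 for MT-ND2, -0.43 for ATP5MC2, -0.57 for NDUFS8 and 0.71 for ATP5S. Batch A had 2 samples per group and 8873569 or more reads per library, and what sets the batches apart was not tested.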

How the results depend on the processing

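The directions of the medians (mitochondrial 0.31, nuclear -0.26) and the called-lower counts of 0 for mitochondrial genes held in all fits. So did the difference in read share pooled over both batches (2.57 points, with 2.26 to 2.77 without single libraries, 2.81 without INS and 2.88 with nuclear copies). Scaling to the same total gave medians of 0.20 and -0.37, with 12 nuclear genes called lower and 1 mitochondrial gene called higher. Of all 13847 genes, 2090 were then called lower and 1226 higher. The same non-mitochondrial total gave 8 and 1, beside 1862 and 1363 of all genes. Without the batch term 2 mitochondrial genes rose (1 called) and 20 nuclear genes fell. Of all 13847 genes, 1357 rose (1037 called) and 1380 fell in that fit. Without the filter 5 mitochondrial genes rose, beside 2980 of all 22707 genes. Batch A alone gave a mitochondrial median of 0.45 and 2 nuclear genes called higher (ATP5MC2 and COX7A1). In that fit 1667 of all 13503 genes were called higher. Batch B alone gave 13 nuclear genes called lower, 1 higher (NDUFA5) and 1 mitochondrial gene called higher. In that fit 1718 of all 13694 genes were called lower and 1713 higher. edgeR and DESeq2 each called 1 nuclear gene higher, COX7A1, beside 1561 and 1576 of all 13847 genes. The count of 6 genes that differ between batches was the least stable: 0 without the filter or the trend, 15 with array weights and 10 with DESeq2. Without single libraries it was 0 to 10, nuclear genes called lower 4 to 8, nuclear called higher 0 to 2 and mitochondrial called higher 1 to 2. The causes were not tested. Of these counts, the 10 and the 8 came without non-senescent B3 and 2 without senescent B4; the count of differing genes was 0 without either A sample of either group, and 1 mitochondrial gene was called higher without non-senescent A2 or senescent A1.

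Small values turned sign: MT-ATP6 (-0.08), MT-ATP8 (-0.01), MT-CO2 (-0.07) and SDHC (-0.09) under the same total; MT-ATP6 (-0.03), MT-CO2 (-0.03) and SDHC (-0.04) under the same non-mitochondrial total; COX4I1 (0.06) in batch A; MT-ATP6 (-0.04), MT-ATP8 (-0.12), MT-CO2 (-0.05), MT-CO3 (-0.02) and SDHA (0.04) in batch B. Without single libraries SDHA ranged from -0.04 to 0.01, SDHC from -0.01 to 0.05, MT-ATP8 from 0 to 0.18 and MT-ATP6 from -0.01 to 0.05.

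Same-numbered samples did not deviate together (correlations of -0.05 to 0.02), so the numbers were not taken to pair samples. With a replicate block 42 nuclear genes fell and 5 rose, 5 were called lower, and 8 mitochondrial genes rose. Of all 13847 genes, 2912 fell, 3027 rose and 1620 were called lower with that block. Adding the copies on chromosome 1 to their genes, chosen after seeing the data, changed none of these counts. COX7A1 and COX6B2, with 2 to 51 and 3 to 26 reads per library, are limited by counting error.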
